A study of Sus scrofa with 9 samples.

Results

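CSRP3 and MYL6B are a pair of muscle genes whose array values were lowest in pigs fed too little lysine. They were chosen by those values: all 4 of their probe sets stood at the low end of the comparisons of deficient pigs with the other diets. What separated deficient pigs from the others is therefore given below as a description with no test. Only the comparison of excess with adequate lysine is tested for the members. The members are all probe sets, the sets of short array sequences read as 1 value, whose single gene symbol is CSRP3 or MYL6B. There are 2 for CSRP3, numbered 15255314 and 15262781, and 2 for MYL6B, numbered 15288283 and 15292502, of 27558 in all.

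Gene expression was measured with whole-transcript GeneChip arrays in back muscle (longissimus dorsi) taken between ribs 10 and 12. Male finishing pigs of about 95 kg were fed a lysine-deficient diet (pigs 1, 2 and 3), a lysine-adequate diet (pigs 5, 6 and 7) or a lysine-excess diet (pigs 9, 10 and 11) for 5 weeks, with 3 pigs and 3 arrays per diet. Lysine supply was set with reference to published swine requirements, per the labels. The sources used here do not give the breed, the lysine content of the diets or any treatment that all pigs shared.

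CSRP3 encodes the muscle LIM protein, a small protein of striated muscle with a pair of LIM domains, zinc-binding folds that hold other proteins. It sits at the Z-disc, the plate that anchors actin filaments at the ends of each sarcomere, and is also found in the nucleus. In rodents it is more abundant in slow than in fast muscle and has been described as a partner of the myogenic factor MyoD and as part of the response of muscle to stretch. MYL6B encodes an essential (alkali) light chain, a small subunit that stiffens the lever arm of myosin, and is known from slow skeletal muscle and from non-muscle cells. Lysine is an essential amino acid and usually the first to limit growth in pigs fed cereals.

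The tissue label was checked against markers of muscle. Of the 10 skeletal muscle markers listed, 5 were measured under a single symbol, and their mean log2 value lay between 12.58 and 12.71 in deficient, 12.66 and 12.70 in adequate and 12.66 and 12.73 in excess pigs, with all 5 above the median of all probe sets. Array values ran from 3.10 to 14.3, and array medians from 5.01 to 5.21. The array of excess pig 11 stood apart. It correlated with the other arrays at 0.904 to 0.956 over all probe sets, against 0.977 to 0.992 among the other 8, and its values had an SD of 1.82, against 1.93 to 1.99. Of its probe sets, 6.31% lay more than 1 log2 unit above and 3.03% more than 1 below the mean of the other excess pigs. For adequate pigs these shares were 0.265% to 0.824% above and 0.308% to 0.403% below. For excess pig 9, 4.16% lay below, but the mean it was set against includes pig 11. Differences that use excess pigs are therefore also given without pig 11, for the members beside the main values and for some other genes together further on. Group levels and spreads of excess pigs include pig 11.

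Across all probe sets, limma called none at an adjusted p of 0.05 in any of the 3 comparisons, a percentage of 0 in each. The smallest adjusted p was 0.145 for deficient against adequate, 0.117 for deficient against excess and 0.757 for excess against adequate. At an unadjusted p of 0.05, deficient against adequate held 232 higher (0.842%) and 279 lower (1.01%) probe sets. Deficient against excess held 784 higher (2.84%) and 340 lower (1.23%), and excess against adequate held 373 higher (1.35%) and 608 lower (2.21%). Groups that did not overlap, with the deficient pigs lower, were found in 3.07% of probe sets against adequate and 2.19% against excess.

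CSRP3 was low in deficient pigs as a group but spread widely among them. Its probe set 15255314 read 7.28, 10.66 and 8.99 in deficient pigs 1, 2 and 3, against 10.20, 10.65 and 11.46 in adequate pigs 5, 6 and 7 and 11.43, 11.12 and 10.47 in excess pigs 9, 10 and 11, all on the log2 scale. Deficient pigs 1 and 3 lay below every pig of the other diets, whereas deficient pig 2 lay inside the range of both. The groups therefore overlapped at this probe set. Group means were 8.97 ± 1.69 in deficient, 10.77 ± 0.64 in adequate and 11.01 ± 0.49 in excess pigs (SD, n = 3 each).

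The other CSRP3 probe set, 15262781, placed deficient pig 2 apart from the other diets as well. It read 4.73, 8.10 and 6.72 in deficient pigs 1, 2 and 3, against 9.07, 9.78 and 9.86 in the adequate pigs and 9.41, 8.97 and 9.00 in the excess pigs. The highest deficient pig was thus below the lowest pig of either other diet. Group means were 6.51 ± 1.69, 9.57 ± 0.43 and 9.13 ± 0.25 for deficient, adequate and excess pigs (SD, n = 3 each). Both CSRP3 probe sets ranked the deficient pigs the same way, with pig 1 lowest and pig 2 highest.

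MYL6B separated the deficient pigs from the rest at both of its probe sets. Probe set 15288283 read 7.79, 8.89 and 9.50 in deficient pigs 1, 2 and 3, against 10.14, 10.44 and 11.01 in the adequate pigs and 11.34, 11.12 and 10.86 in the excess pigs. The second, 15292502, read 7.66, 8.86 and 9.38 in deficient pigs, against 9.99, 10.24 and 10.83 in adequate and 11.16, 10.93 and 10.68 in excess pigs. No deficient pig reached the lowest pig of another diet. Within the deficient group MYL6B ranked pig 1 lowest, as CSRP3 did, but ranked pig 3 rather than pig 2 highest. Group means at 15288283 were 8.73 ± 0.87, 10.53 ± 0.44 and 11.11 ± 0.24 for deficient, adequate and excess pigs, and at 15292502 they were 8.63 ± 0.88, 10.36 ± 0.43 and 10.93 ± 0.24 (SD, n = 3 each).

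**Figure D1:**
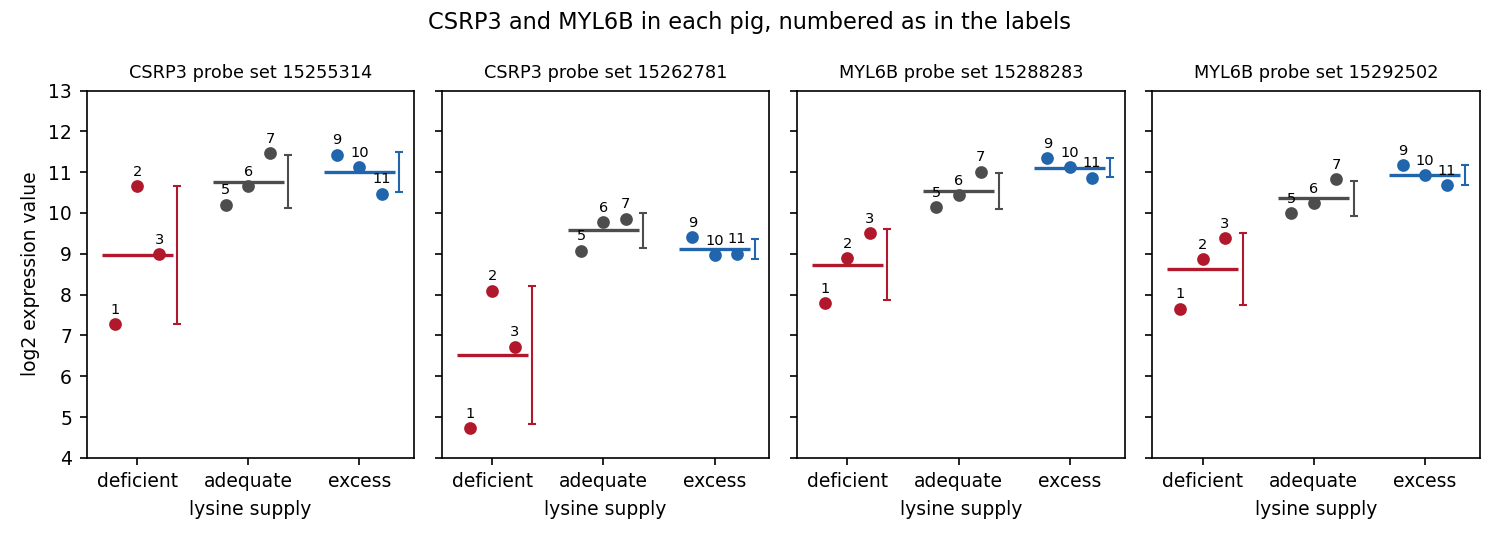
Log2 expression values (y axis, shared) of the 2 CSRP3 and 2 MYL6B probe sets in each pig, by lysine supply (x axis). Points are pigs with their label numbers, horizontal lines are group means and the bars beside them are ± 1 SD; deficient pig 2 lies among the adequate and excess pigs only at CSRP3 probe set 15255314.

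Deficient minus adequate differences were -1.80 ± 0.78 and -3.06 ± 0.74 on the log2 scale at the CSRP3 probe sets 15255314 and 15262781 (± SE of the limma model), that is 3.47-fold and 8.32-fold lower. This SE pools the spread of all diets, although deficient pigs varied more than the others at all 4 probe sets. The corresponding MYL6B differences were -1.80 ± 0.42 at 15288283 and -1.72 ± 0.42 at 15292502, or 3.49-fold and 3.30-fold lower. The groups did not overlap at 3 of the 4 probe sets, beside 3.07% of all probe sets. Since this comparison chose the members, nothing is read from that count.

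Against excess pigs, deficient pigs differed by -2.03 ± 0.78 and -2.61 ± 0.74 at CSRP3 and by -2.38 ± 0.42 and -2.29 ± 0.42 at MYL6B, in the same order of probe sets. These are 4.10-fold, 6.12-fold, 5.22-fold and 4.90-fold lower values. Again 3 of the 4 did not overlap, beside 2.19% of all probe sets. Both comparisons use the same deficient arrays, so their likeness is partly built in. Without excess pig 11 the differences were -2.30, -2.67, -2.51 and -2.41.

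The 4 probe sets were also the 4 most negative differences of all 27558 in both comparisons, a consequence of how the genes were chosen. The next one against adequate was an unnamed probe set, 15180709, at -1.57 ± 0.71, and the next one against excess, LOC100516720, was at -1.88 ± 1.37, both singled out after their values were seen. The places depended on single pigs. Without deficient pig 1, the CSRP3 probe sets stood at places 42 and 2 against adequate and 179 and 27 against excess. The MYL6B probe sets moved to places 11 and 17 against adequate and 11 and 23 against excess. Without excess pig 9, the CSRP3 probe sets stood at places 134 and 20 against excess and the MYL6B ones at 32 and 50. Their own differences changed little there, at -1.82 and -2.47 for CSRP3 and -2.27 and -2.17 for MYL6B. With all pigs these were -2.03, -2.61, -2.38 and -2.29.

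**Figure D2:**
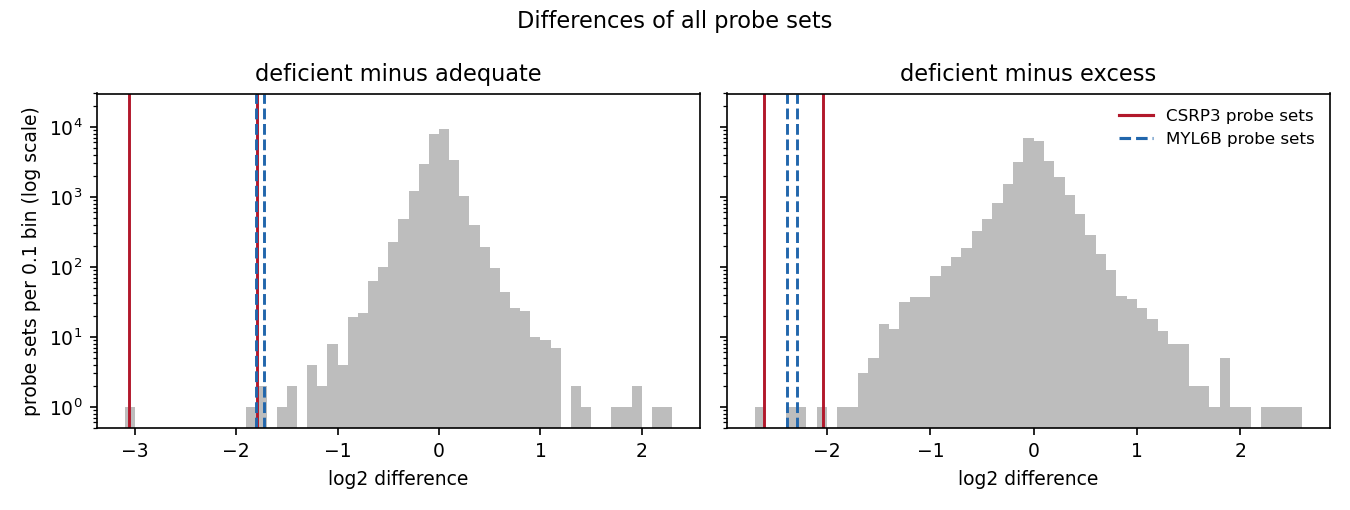
Numbers of probe sets (y axis, log scale) by log2 difference in bins of 0.1 (x axis), for deficient minus adequate (left) and deficient minus excess (right) pigs. Solid lines mark the CSRP3 probe sets and dashed lines the MYL6B probe sets, between -3.06 and -1.72 on the left and between -2.61 and -2.03 on the right.

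Excess and adequate pigs could be tested, and neither gene passed. At CSRP3, excess minus adequate was 0.24 ± 0.78 at 15255314 (limma, adjusted p = 0.913, 95% interval -1.58 to 2.06) and -0.44 ± 0.74 at 15262781 (limma, adjusted p = 0.828, 95% interval -2.16 to 1.27). The CSRP3 probe sets thus pointed in opposite directions, and each interval spans changes of more than 1 log2 unit either way. The SE pools the spread of all diets, so the wide spread of the deficient pigs enters these intervals and those of MYL6B. At 15262781 the SD was 1.69 in deficient, 0.43 in adequate and 0.25 in excess pigs. At MYL6B, the difference was 0.58 ± 0.42 at 15288283 (95% interval -0.40 to 1.56) and 0.57 ± 0.42 at 15292502 (95% interval -0.41 to 1.55), each with an adjusted p of 0.757 by limma. Without excess pig 11 the 4 differences were 0.51, -0.38, 0.70 and 0.69, each with an adjusted p of 1 by limma. In order of level, then, MYL6B ran deficient, adequate, excess at both probe sets, with adequate and excess not told apart. CSRP3 had the same order at 15255314 and the order deficient, excess, adequate at 15262781, with these last 2 likewise not told apart.

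The spread within a diet was itself large for CSRP3 among deficient pigs. The deficient values also chose the genes, and 1 very low pig favours such a choice. Ranks among deficient pigs are therefore descriptions from which nothing is read. Only 60 of all probe sets (0.218%) had a larger SD among deficient pigs than CSRP3 at 15255314, and 59 (0.214%) than at 15262781. For MYL6B these numbers were 439 (1.59%) and 426 (1.55%). Among adequate pigs, 1.57% and 4.80% of probe sets had a larger SD than the CSRP3 probe sets and 4.57% and 4.79% than the MYL6B probe sets. Among excess pigs, 2 of whose arrays deviate as described above, the shares were 15.8% to 43.3%. A wide spread was thus seen in adequate pigs too. Deficient pig 1 accounted for the low end. Its value minus the mean of its diet mates was -2.55 and -2.68 log2 units at the CSRP3 probe sets, where 1 and 0 of all probe sets lay further below. At the MYL6B probe sets it was -1.41 and -1.46, where 24 and 18 lay further below.

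Low signal of a whole array before processing could not be seen here. Within the processed values, the array of deficient pig 1 was not low in general. Only 0.323% of its probe sets lay more than 1 log2 unit below its diet mates, against 0.327% and 2.24% for deficient pigs 2 and 3. Its skeletal muscle markers averaged 12.67, inside the range of adequate pigs. Leaving deficient pig 1 out, the deficient minus adequate differences were -0.95 and -2.16 at CSRP3 and -1.33 and -1.24 at MYL6B. Leaving out deficient pig 2 gave -2.64 and -3.85 at CSRP3. The differences from excess pigs without deficient pig 1 were -1.19 and -1.72 at CSRP3 and -1.91 and -1.81 at MYL6B. All stayed negative, with sizes that hung on which pigs were counted.

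The 2 genes moved together pig by pig only in part. Over the 9 arrays, Pearson's r between a CSRP3 and a MYL6B probe set ran from 0.854 to 0.883, and from 0.643 to 0.703 without deficient pig 1. These values are descriptions, because the diet groups form clusters and all 4 probe sets were chosen for the same low group. With each diet's mean subtracted, r was 0.708 to 0.748. Among the 6 adequate and excess pigs alone, CSRP3 at 15255314 followed MYL6B at r of 0.850 and 0.849, whereas CSRP3 at 15262781 did not, at 0.024 and 0.014. The 2 MYL6B probe sets followed each other at 0.999 over the 9 arrays, and the 2 CSRP3 probe sets at 0.943, which among the 6 adequate and excess pigs was 0.447. Without excess pig 11, a setting added after seeing the data, r between CSRP3 and MYL6B probe sets was 0.866 to 0.883, and among the other 5 adequate and excess pigs it was 0.943 for 15255314 and 0.050 and 0.039 for 15262781.

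**Figure D3:**
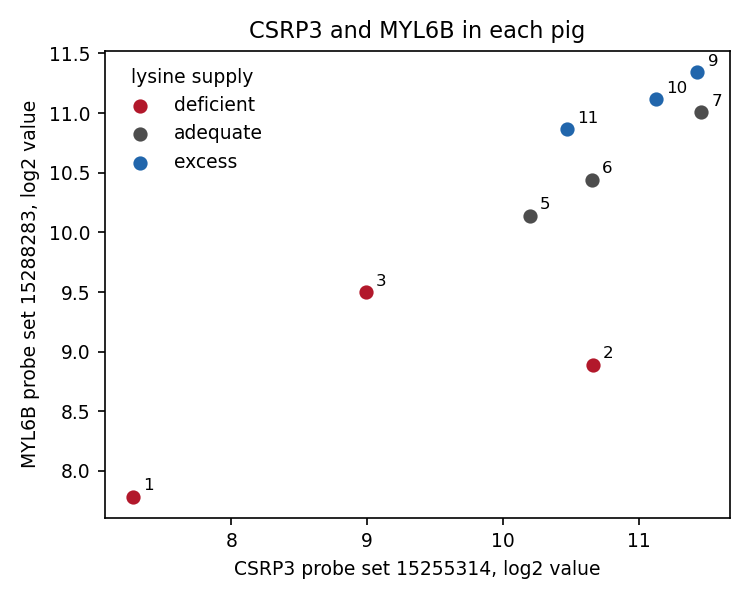
CSRP3 (probe set 15255314, x axis) against MYL6B (probe set 15288283, y axis) in each of the 9 pigs, both as log2 values, coloured by lysine supply and numbered as in the labels. Deficient pig 1 is lowest for both genes; deficient pig 2 has a CSRP3 value of 10.66, within the adequate range, with a MYL6B value of 8.89, below all adequate pigs.

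The gene next to MYL6B in RefSeq's pig annotation, MYL6, did not share its pattern. MYL6 encodes the essential light chain of smooth muscle and non-muscle myosin. It read 8.78, 8.85 and 9.08 in deficient pigs 1, 2 and 3, against 9.33, 8.87 and 9.04 in adequate pigs and 9.23, 8.87 and 8.70 in excess pigs. All 3 groups overlapped. It differed by -0.18 ± 0.17 from adequate and by -0.030 ± 0.17 from excess pigs (limma, adjusted p = 1 and 0.974), and by -0.052 from adequate pigs without pig 5. Its 2 probe sets held identical values, so they are 1 measurement.

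The other myosin light chains differed little between diets. Of 12 listed, 9 were measured, and none passed the adjusted threshold in any comparison. No probe set at all passed it, as given above, so this holds for every list below and sets none of them apart. Deficient minus adequate was positive for 4 and negative for 5, from -0.18 to 0.31, with a median of -0.011, beside a median of 0.0071 over all probe sets. MYL1, the fast essential light chain, averaged 13.59 ± 0.04 in deficient and 13.62 ± 0.03 in adequate pigs, and MYLPF, the fast regulatory light chain, averaged 13.12 ± 0.06 and 13.20 ± 0.08 (SD, n = 3 each). MYL3, the slow essential light chain, lay higher by value in deficient pigs, at 0.31 ± 0.18 (limma, adjusted p = 1), and at 0.16 without deficient pig 1. The slow regulatory light chain MYL2 averaged 12.18 ± 0.12 in deficient and 12.54 ± 0.13 in excess pigs (SD, n = 3 each), a difference of -0.36 ± 0.11 (limma, unadjusted p = 0.0118, adjusted p = 0.872). Its groups did not overlap there, and excess minus adequate was 0.35 ± 0.11 (limma, unadjusted p = 0.0136, adjusted p = 0.757). MYL2 was thus apart in the excess pigs, whereas MYL6B was apart in the deficient pigs.

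Among other proteins that carry LIM domains, as CSRP3 does, 9 of 12 listed genes were measured and again none passed the adjusted threshold. CSRP1 was not among the genes with a single symbol here. CSRP2, a close relative best known from smooth muscle and fibroblasts, averaged 7.35 ± 0.24 in deficient and 7.67 ± 0.39 in adequate pigs (SD, n = 3 each), a difference of -0.31 ± 0.29 (limma, adjusted p = 1) that was -0.093 without adequate pig 5. FHL1, a LIM protein of skeletal muscle that binds titin, read 11.95, 11.91 and 11.97 in deficient pigs, against 12.11, 12.08 and 12.45 in adequate and 12.38, 12.06 and 12.18 in excess pigs. No deficient pig reached another diet, but the differences were small, at -0.27 ± 0.12 from both adequate and excess pigs (limma, adjusted p = 1 and 0.872). Without adequate pig 7, the difference from adequate pigs was -0.15. FHL3 was lower by value at -0.63 ± 0.27 against adequate (limma, unadjusted p = 0.0461, adjusted p = 1), with groups that overlapped, and at -0.41 without deficient pig 1. Its dim second probe set gave -0.29 ± 0.33. The list's median deficient minus adequate difference was 0.0063, and its range was -0.63 to 0.21.

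Z-disc proteins, the neighbours of CSRP3 in the sarcomere, were 18 measured of 26 listed. By sign, 10 were higher and 8 lower in deficient than in adequate pigs, from -0.24 to 0.16, and none passed the adjusted threshold. At an unadjusted p of 0.05, 0 were higher and 1 lower, SYNPO2, an actin-bundling protein of the Z-disc, at -0.24 ± 0.09 (limma, adjusted p = 1). The binding partners TCAP (telethonin) and ACTN2 (alpha-actinin 2) were at -0.15 ± 0.28 and -0.11 ± 0.12 (limma, adjusted p = 1 for each). Without 1 adequate pig they came to -0.018 (TCAP, without pig 7) and -0.020 (ACTN2, without pig 5). LDB3, which links alpha-actinin to other Z-disc proteins, was at -0.13 ± 0.06 with groups that did not overlap. MYOZ2, a calcineurin-binding Z-disc protein of slow fibres, lay lower in deficient than in excess pigs, at -0.36 ± 0.15 at one probe set and -0.53 ± 0.22 at the other (limma, adjusted p = 0.872 for each). The first of these was -0.24 without deficient pig 1. The 10 measured of 12 reported CSRP3 partners split 5 higher and 5 lower against adequate, with a median of 0.012.

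Genes that respond to load or mark myogenic cells also stayed short of the threshold. Of 13 listed stretch-responsive ankyrin genes and titin partners, 8 were measured. Against adequate, 6 were higher and 2 lower by value, with a median of 0.014. Against excess, 7 were higher and 1 lower, from -0.27 to 1.23, with a median of 0.062. There 1 was higher and 0 lower at an unadjusted p of 0.05, beside 2.84% and 1.23% of all probe sets. That gene, ANKRD1, a stretch-responsive titin partner, averaged 12.58 in deficient pigs, against 12.29 in adequate pigs. It was 0.76 ± 0.32 higher by value in deficient than in excess pigs (limma, unadjusted p = 0.0472, adjusted p = 0.872). NRAP, an anchoring protein that binds CSRP3 in mouse muscle, differed from excess pigs by 0.28 ± 0.20 (limma, adjusted p = 0.872). MYOD1, the gene of MyoD, differed from adequate pigs by 0.40 ± 0.23 (limma, adjusted p = 1). ANKRD2 was not among the genes with a single symbol here. Of the calcineurin and NFAT genes, which carry a slow-fibre signal, 9 of 12 were measured, 2 higher and 7 lower against adequate by value, with a median of -0.19 and none past the threshold.

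None of the measured slow-fibre contractile genes passed the adjusted threshold in any comparison. Of 13 listed, 10 were measured, and deficient minus adequate was positive for 7 and negative for 3, with a median of 0.15; against excess, it was positive for 3 and negative for 7, with a median of -0.13. At an unadjusted p of 0.05, 1 was higher and 0 lower against adequate, and 0 were higher and 2 lower against excess, MYL2 and MYOZ2. The shares of all probe sets were 0.842% and 1.01% against adequate and 2.84% and 1.23% against excess. Excess minus adequate was positive for 9 and negative for 1, with a median of 0.24. There 3 were higher and 0 lower at that unadjusted p, beside 1.35% and 2.21% of all probe sets. TNNC1, the slow and cardiac troponin C, read 11.22, 11.13 and 11.13 in deficient pigs, against 10.79, 10.74 and 11.07 in adequate and 11.37, 11.19 and 11.45 in excess pigs. All deficient pigs lay above all adequate pigs, at 0.29 ± 0.11 (limma, unadjusted p = 0.0284, adjusted p = 1). Excess pigs averaged 0.47 ± 0.11 higher than adequate pigs at TNNC1 (limma, unadjusted p = 0.00279, adjusted p = 0.757). MYH7, the slow myosin heavy chain, averaged 0.28 ± 0.14 higher in excess than in adequate pigs (limma, adjusted p = 0.757), and 0.16 higher without excess pig 9.

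Of the fast-fibre contractile genes, 12 of 16 were measured, and 11 were lower in deficient than in adequate pigs by value, with a median of -0.084. PVALB, parvalbumin, the calcium buffer of fast fibres, had the most negative difference. It read 10.13, 10.65 and 10.87 in deficient pigs, against 11.17, 11.07 and 10.97 in adequate and 11.03, 11.02 and 10.99 in excess pigs. Its order among deficient pigs was that of MYL6B, and no deficient pig reached another diet. The differences were -0.52 ± 0.17 from adequate and -0.46 ± 0.17 from excess pigs (limma, unadjusted p = 0.0169 and 0.0278, adjusted p = 1 and 0.872), and without deficient pig 1 they were -0.31 and -0.25.

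**Figure D4:**
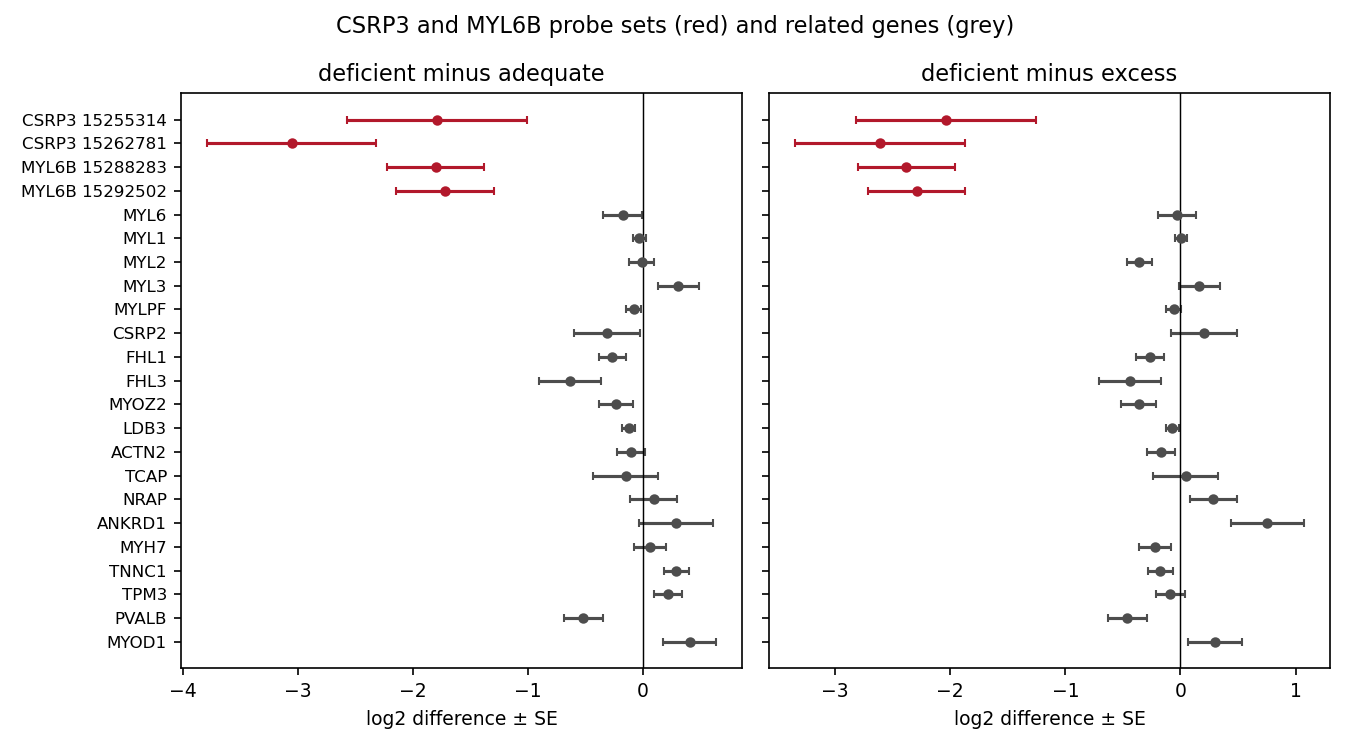
Log2 differences (x axis) ± SE of the 4 member probe sets (red) and of 19 related genes at their brightest probe set (grey), for deficient minus adequate (left) and deficient minus excess (right) pigs. The members lie at or below -1.72, and the related genes between -0.63 and 0.40 on the left and between -0.46 and 0.76 on the right.

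No marker of another cell type passed the adjusted threshold in any comparison, and the following are values only. All 11 measured fibroblast markers of 12 were lower in deficient than in adequate pigs by value, with a median of -0.38. Their mean level was 8.94 to 9.41 in deficient, 9.46 to 9.93 in adequate and 8.81 to 9.37 in excess pigs, and none of the 11 averaged below the median of all probe sets. COL1A1, a collagen chain, and FN1, fibronectin, were at -0.45 ± 0.12 and -0.79 ± 0.29 (limma, unadjusted p = 0.00578 and 0.0258, adjusted p = 1 for each), and FN1 was at -0.51 without deficient pig 2. The 8 measured adipocyte markers of 11 averaged 6.75 to 7.01 in deficient, 6.49 to 6.91 in adequate and 6.40 to 6.55 in excess pigs. CIDEC, a lipid droplet protein, was 0.57 ± 0.17 higher by value than in adequate and 0.98 ± 0.17 than in excess pigs (limma, unadjusted p = 0.0121 and 5.4e-04, adjusted p = 1 and 0.872).

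The 4 measured satellite cell markers of 7 averaged 7.03 to 7.26 in deficient, 6.69 to 7.17 in adequate and 6.75 to 6.94 in excess pigs, and the 7 measured smooth muscle and pericyte markers of 10 averaged 7.65 to 7.83, 7.87 to 8.18 and 7.58 to 7.96. Immune, nerve and erythroid markers had mean levels below the median of all probe sets in every diet. The part of these cell types in the CSRP3 and MYL6B values was not tested. In pieces of whole muscle, fewer cells of a type and less RNA per cell cannot be told apart.

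Without excess pig 11, deficient minus excess was -0.15 for MYL6, -0.32 for MYL2, -0.28 for FHL1, -0.47 for PVALB, and -0.38 and -0.51 at the MYOZ2 probe sets. It was 0.69 for ANKRD1, 0.28 for NRAP and 0.98 for CIDEC. MYOD1 moved most of these, to 0.030 against 0.30 with all pigs. Excess minus adequate was 0.31 for MYL2, 0.41 for TNNC1 and 0.29 for MYH7. The median difference of the slow-fibre genes was -0.083 for deficient minus excess and 0.26 for excess minus adequate. None of these genes passed the adjusted threshold without pig 11, by limma, and at an unadjusted p of 0.05 deficient against excess then held 576 higher and 447 lower probe sets and excess against adequate 324 and 348.

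Genes most like the members were ranked by Pearson's r over the 9 arrays among 7324 probe sets of 6833 genes, at or above the median level. ZNF106, a zinc finger protein, was most like MYL6B at r = 0.980. It read 11.61, 11.78 and 11.83 in deficient pigs, against 12.06, 12.09 and 12.20 in adequate and 12.22, 12.12 and 12.11 in excess pigs. It kept the order of MYL6B within each diet, but over a range of 0.61 log2 units. The next were LRRC28 (0.956), CA3 (0.922), BIN1 (0.918) and NDUFA1 (0.915). CA3, carbonic anhydrase 3, abundant in slow muscle, read 12.58, 12.78 and 12.87 in deficient pigs, against 13.01, 13.06 and 13.07 in adequate and 13.07, 12.99 and 12.93 in excess pigs. These 5 genes were lower in deficient than in adequate pigs by 0.23 to 0.41 log2 units, which follows from the ranking. The BIN1 values are from probe set 15235340. At the brightest BIN1 probe set the difference was -0.31, and -0.20 without deficient pig 1.

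CSRP3 at 15255314 had other companions. The highest were TELO2 (r = 0.950), ABHD13 (0.931), MYOZ2 (0.913), WSB2 (0.903) and SYNJ2BP (0.893), with MYL6B in place 8. TELO2 spanned only 0.072 log2 units over the 9 arrays, so its correlation rests on very small differences. MYOZ2 read 12.47, 13.03 and 12.67 in deficient pigs, against 12.99, 12.76 and 13.13 in adequate and 13.15, 13.07 and 13.05 in excess pigs. Like CSRP3 it was lowest in deficient pig 1 and inside the adequate range in deficient pig 2. CSRP3 was in place 13 of the list for MYL6B.

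At the other end, the genes least like MYL6B were CD164 (r = -0.931), GTF2A2 (-0.919) and PSAT1 (-0.918). PSAT1, an aminotransferase of serine synthesis, read 10.07, 8.98 and 8.28 in deficient pigs 1, 2 and 3, against 7.57, 6.53 and 6.40 in adequate and 7.49, 6.77 and 6.78 in excess pigs. Its order among the deficient pigs was the reverse of that of MYL6B, over a range of 3.67 log2 units. For CSRP3 the lowest were IRF7 (-0.882), CCDC25 (-0.881) and AQP5 (-0.874), and IRF7 and AQP5 each spanned under 0.1 log2 units. Few of the named genes stayed among the nearest 5 under another measure. With diet means subtracted, 1 of the 5 genes nearest CSRP3 and 0 of the 5 nearest MYL6B stayed among the nearest 5, and by Spearman's rho 2 of 5 did for each. The 5 genes named for each still had r of 0.808 to 0.963 (CSRP3) and 0.681 to 0.960 (MYL6B) with diet means subtracted. Their rho was 0.583 to 0.900 and 0.728 to 0.983. Without excess pig 11, the named genes kept r of 0.902 to 0.951 (CSRP3) and 0.910 to 0.980 (MYL6B) at the high end. At the low end, r was -0.927 to -0.882 and -0.938 to -0.914.

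**Figure D5:**
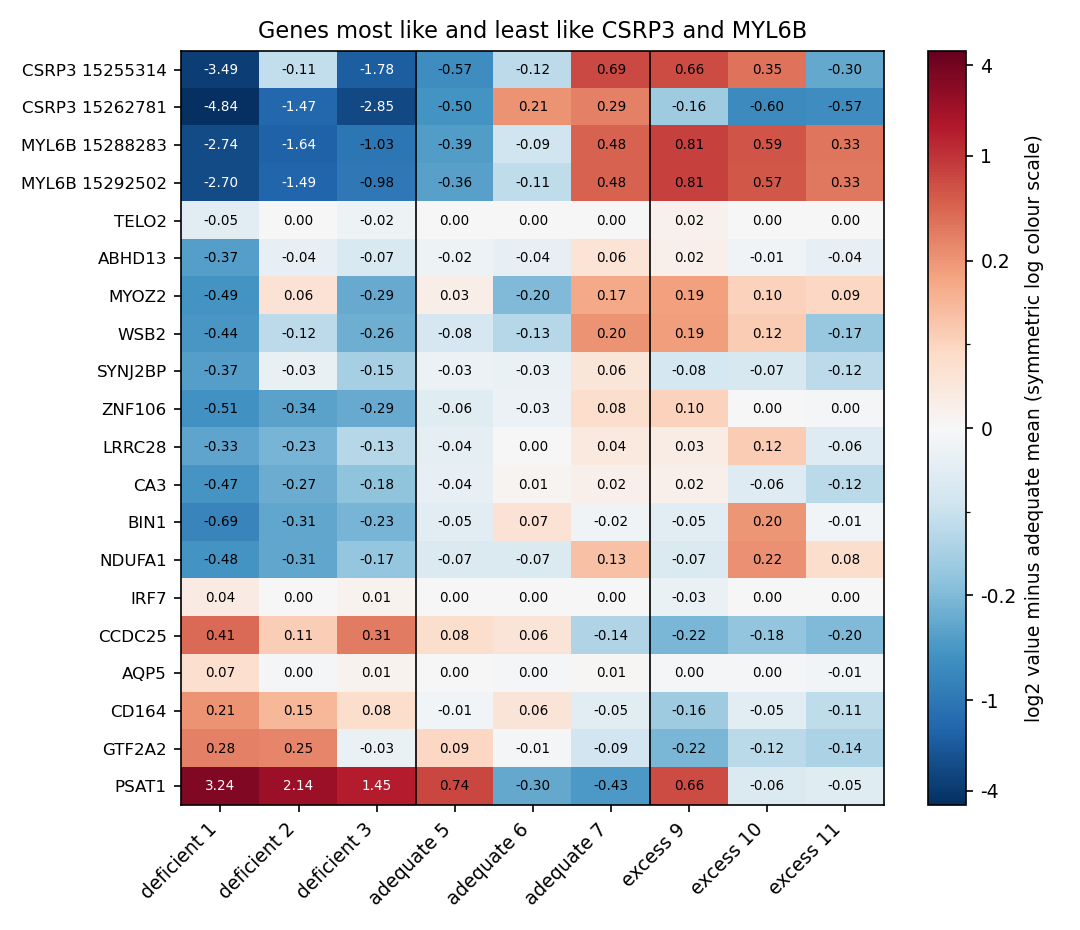
Log2 value minus the mean of the adequate pigs (colour and printed number) for the 4 member probe sets and for the genes most like and least like CSRP3 (probe set 15255314) and MYL6B (probe set 15288283), in each of the 9 pigs. The colour scale is a symmetric log scale; the members and PSAT1 differ by more than 1 log2 unit in at least 2 deficient pigs, and the other genes by less in every pig.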

How the data were processed

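The deposited values are the authors' processed log2 values, 1 per probe set and array. The log base is inferred from their range of 3.10 to 14.3, and every fold rests on it. Per the submitters' processing notes, GCOS 1.2 and Partek were used, at steps the notes leave unstated. The normalization method is not given in the sources used here. No further normalization, pseudocount or filter was applied. Of 27558 probe sets, 13323 had 1 symbol, 357 had several and 13878 had none in the platform annotation. The IDs of 13014 matched the pig gene table, and 7 symbols were updated. The MYL6B probe sets list that symbol under 2 Entrez IDs, of which 1 is in the table.

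Differences come from limma 3.58.1 (lmFit and eBayes, R 4.3.3), with a mean for each diet and all 9 arrays in the model. Its SEs thus pool the spread of all diets. The code was also run on simulated data with noise of equal spread on every array. That run does not cover arrays of unequal quality, as here. Tests were two-sided, with Benjamini-Hochberg adjustment over all probe sets. Replicates were separate pigs, and 3 arrays per diet limit the precision, with a median SE of 0.13. Other genes came from 20 lists, each gene at its brightest probe set. Named were all members, the 5 genes most and 3 least like each, the myosin light chains and LIM proteins, key partners, and up to 4 genes per other list with the smallest unadjusted p in deficient against adequate. The members and lists were chosen with earlier results of these data known. No genome coordinates or sequences are given, because the array's genome build is unknown here.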

Additional observations from a re-analysis of the deposited data

How the results depend on the processing

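Results were recomputed with median centring, a further quantile normalization, array quality weights, each array's SD as covariate, a trended robust prior, only the 6 arrays compared, the dimmest 25% left out, only probe sets with 1 symbol, the mean of a gene's probe sets, and each pig left out in turn. Some of these settings cannot alter a difference: the trended robust prior, the 6 compared arrays, the limits on probe sets, and leaving out a pig of the third diet. Direction was fixed in advance there, so the counts below overstate how much was tried. For excess minus adequate, the tested comparison of CSRP3 and MYL6B, 70 of 72 values kept their direction and side of the threshold. The other 2 were at CSRP3 15255314: -0.10 as the mean of the gene's probe sets, and -0.047 without adequate pig 5. With each pig left out in turn, this difference ran from -0.047 to 0.58. The 144 values of both deficient comparisons, which carry no test and chose the genes, were all negative. Of 1071 values of other named genes, 1068 kept direction and side, and the 3 that turned were all of MYL6. MYL6 in deficient minus excess pigs turned to 0.020 after median centring and ran from -0.15 to 0.12 with pigs left out. The cause was not tested. With each pig left out in turn, deficient minus adequate ran from -2.64 to -0.95 and from -3.85 to -2.16 at the CSRP3 probe sets, and from -2.19 to -1.33 and from -2.10 to -1.24 at the MYL6B probe sets.

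Past the adjusted threshold, array quality weights gave 1 probe set for deficient against adequate (adjusted p = 0.0123), and testing only probe sets with 1 symbol gave 1 for deficient against excess (adjusted p = 0.0457), where fewer are tested. All other alternatives gave 0. Counts at an unadjusted p of 0.05 were less stable: for deficient against adequate from 98 to 1039 higher and from 135 to 1168 lower, for deficient against excess from 286 to 2171 and from 149 to 1798, and for excess against adequate from 118 to 2244 and from 154 to 2394, the highest of the last 4 without excess pig 9. The excess arrays had quality weights of 0.68, 0.19 and 0.22, against 0.90 to 2.46 for the others. Signal over background is unknown here, and CSRP3 15262781 read 4.73 in deficient pig 1, below the median of 5.07 over all probe sets.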
